A study of Mus musculus with 72 samples.

Results

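CEBPB occupancy of chromatin was examined in mouse embryonic fibroblasts (MEFs) through the 4 ChIP-seq peak lists of this transcription factor, out of 64 peak lists and 72 samples in the series. The 4 lists held 14197 and 14692 peaks in the WT libraries (WT1 and WT2) and 4886 and 5328 peaks in the libraries of double knockout (DKO) cells (DKO1 and DKO2). Peaks of the 4 lists that overlapped by at least 1 bp were merged into 17002 sites, and each site was classed by the libraries that called it. The groups were Hmgn1+/+n2+/+ cells (WT) and Hmgn1-/-n2-/- cells (DKO), both of the strain C57BL/6, with 2 biological replicates each. No treatment or time separates them, and the age of the embryos is not given in the sources used here. DKO cells lack HMGN1 and HMGN2, nucleosome-binding proteins without sequence preference, in every cell and from the start of development. The comparison asks how the chromatin binding of a sequence-specific factor differs when both proteins are absent.

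CEBPB is a basic leucine zipper protein of the C/EBP family that binds DNA as a dimer, with itself or with other bZIP proteins. Its dimers recognize a short palindromic element built of the paired sequence TTGC and GCAA, written here as the core TTGCNNAA. In fibroblasts CEBPB is known for the induction of inflammatory and acute-phase genes, for the early phase of adipocyte differentiation and for the response to amino acid deprivation and endoplasmic reticulum stress.

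The labelled cell type was checked through H3K27ac, the acetylation of histone H3 lysine 27 that marks active promoters and enhancers. All 10 fibroblast markers examined carried an H3K27ac peak within 1000 bp of a start site in every library, and 0 of the markers of B lymphocytes, pluripotent stem cells and epithelium did. Of the 3 annotated macrophage markers, Csf1r was marked in each library. At the Hmgn2 gene H3K27ac peaks numbered 3 in either WT library and 0 in either DKO library, while Hmgn1 kept such peaks in all 4 (2, 2, 4 and 5), so that the peak lists check the deletion of Hmgn2 alone. At the Cebpb gene itself there were 2 H3K27ac peaks in each WT and 1 in each DKO library, and 1 CEBPB peak in all 4.

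The sequences under the strongest sites show the element that the factor recognizes and how it differed between the classes. The lines give 61 bases centred on the strongest summit, on the plus strand of mm9, at the 3 strongest sites called in all 4 libraries (Rcn1, Cdkl4, Htra1), the 3 strongest in both WT and no DKO library (Ddx51, Sirt4, Nnt) and 2 of the strongest in both DKO and no WT library (Ppap2a, Taf3). Capitals mark every match to TTGCNNAA on either strand. Each site is named by the protein-coding gene with the nearest start site, which says nothing on whether the gene is its target.
Rcn1, chr2:105268426-105268486: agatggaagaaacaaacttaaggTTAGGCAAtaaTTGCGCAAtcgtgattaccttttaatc
Cdkl4, chr17:80960256-80960316: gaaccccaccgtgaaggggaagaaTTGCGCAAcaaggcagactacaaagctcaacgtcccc
Htra1, chr7:138086924-138086984: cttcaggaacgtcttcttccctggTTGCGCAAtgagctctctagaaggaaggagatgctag
Ddx51, chr5:111089596-111089656: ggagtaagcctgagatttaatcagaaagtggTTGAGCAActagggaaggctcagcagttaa
Sirt4, chr5:115941811-115941871: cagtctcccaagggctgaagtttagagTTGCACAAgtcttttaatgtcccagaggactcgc
Nnt, chr13:120198044-120198104: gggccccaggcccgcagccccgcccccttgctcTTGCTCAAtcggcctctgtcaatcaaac
Ppap2a, chr13:113653288-113653348: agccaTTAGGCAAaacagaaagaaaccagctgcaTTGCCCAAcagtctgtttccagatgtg
Taf3, chr2:9955465-9955525: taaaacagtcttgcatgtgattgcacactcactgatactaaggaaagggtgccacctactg
The 3 strongest sites called in all 4 libraries hold the perfect palindrome TTGCGCAA. The 3 strongest WT-only sites hold TTGCTCAA or TTGCACAA, and of the DKO-only sites shown, that in Ppap2a holds a core and that in Taf3 does not.

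The number of CEBPB peaks was lower in DKO cells than in WT cells, with a log2 change of -1.50 (SE 0.07, n = 2 per genotype, adjusted p = 0.00158 from limma fitted over the 16 antibodies of the series). Both DKO libraries lay far below both WT libraries. Of the 16 antibodies tested, 9 (56.2%) had fewer peaks in DKO cells by the same criterion. An exact permutation test of 2 libraries against 2 cannot give a p below 0.333, so the limma value rests on a spread shared by the antibodies, and p measures the spread between these samples.

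The depth behind each list was recovered from the peaks themselves. The fold enrichment (the pileup of reads at the summit over the local background, as the authors' caller MACS2 gave it) and the −log10 p together fix the pileup and the background at each summit. The lowest background, an estimate of the reads stacked at a typical position on the caller's scale, was 1.48 and 1.43 in the WT libraries and 1.14 and 1.18 in the DKO libraries. When the pileup and background of all 4 libraries were scaled to the lowest of these and peaks were called again at the same p, the peak numbers were 14076 and 14586 in WT against 4886 and 5324 in DKO cells, and the log2 change was -1.49. This rescales peaks already called and moved the lists little. The coverage of the libraries themselves, in reads at a typical position before the caller scaled them, was 2.53 and 2.14 in WT against 4.17 and 2.55 in DKO cells, an order opposite to that of the scaled background. The part of depth in the peak number was not tested beyond these values.

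Promoter and distal peaks fell to a similar degree. Promoter peaks, with a summit no more than 1000 bp from a protein-coding start site, numbered 1086 and 1112 in the WT libraries and 361 and 395 in the DKO libraries. Distal peaks numbered 13111 and 13580 against 4525 and 4933. The log2 ratio of promoter to distal peaks differed by -0.04 between DKO and WT cells (SE 0.04, adjusted p = 0.483 from limma). Of the 13 antibodies with enough promoter peaks, 6 (46.2%) differed in this ratio.

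**Figure D1:**
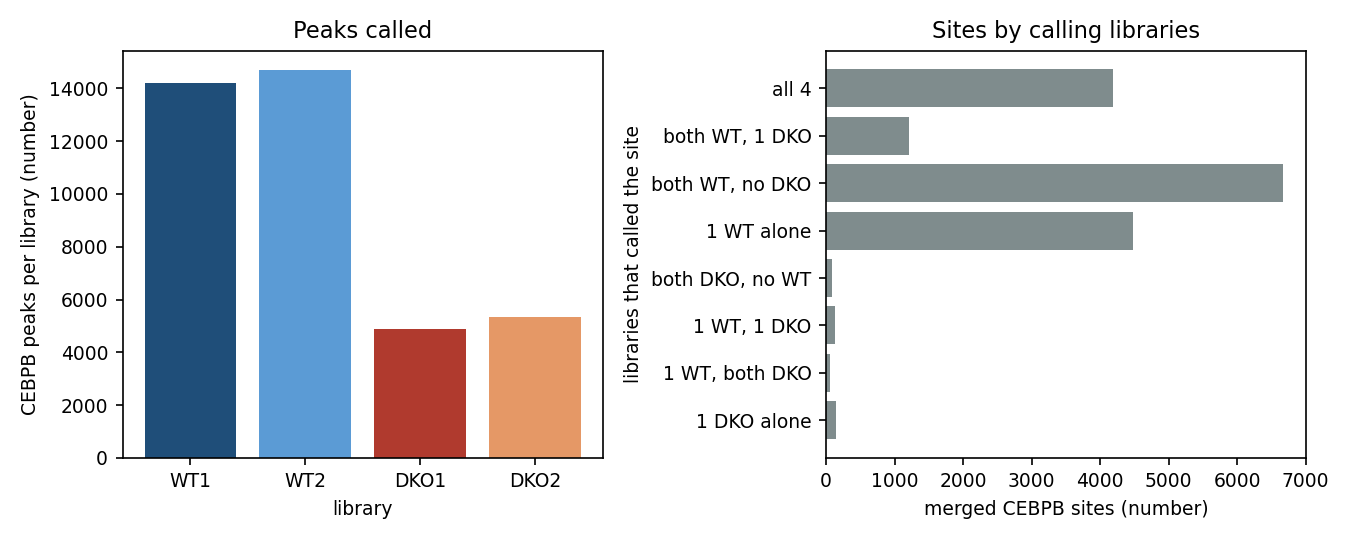
Left, bars give the number of CEBPB peaks called in each of the 4 libraries; right, bars give the number of merged CEBPB sites by the libraries that called them. The DKO lists are about as short as each other, and the sites called in both WT and no DKO library (6675) form the largest class while those called in both DKO and no WT library (82) are few.

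Of the 17002 sites, 6675 (39.3%) were called in both WT and no DKO library, 4193 (24.7%) in all 4, and 82 (0.482%) in both DKO and no WT library. With the strongest 4886 peaks of each library, the WT-only sites numbered 722, so that their number depends on the length of the lists. A further 4481 sites were called in 1 WT library alone and 1218 in both WT libraries and 1 DKO library. Among the sites called in both WT libraries, 55.2% had no DKO peak; these are called lost below, and those with at least 1 DKO peak retained. The lost share lay between 50.8% (chromosome 18) and 58.0% (chromosome 11) over the autosomes and chromosome X, so that no chromosome stood apart. WT-only sites were also alike to shared sites in position, with 7.97% and 7.73% at promoters, 39.5% and 37.0% in introns and 51.0% and 53.6% between genes. Their peaks were weaker in WT cells. The median fold enrichment was 7.36 and 7.57 at WT-only sites and 14.6 and 15.2 at sites called in all 4.

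The share of sites retained in DKO cells rose with the strength of the WT peak. Sites called in both WT libraries were divided into 10 classes of equal size by the mean −log10 p in WT cells. In the weakest class 9.26% of sites were retained, in the fifth class 29.1%, in the eighth 73.1% and in the strongest 99.2%. A site without a DKO peak had a signal below the caller's threshold in DKO cells, which is not the absence of CEBPB, and the DKO background at such sites is unknown.

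The strongest sites called in all 4 libraries lay near genes of varied function. The site 28980 bp from the start of Rcn1, which encodes a calcium-binding protein of the endoplasmic reticulum, had a fold enrichment of 90.7 and 99.9 in the WT libraries and 48.4 and 69.3 in the DKO libraries. The site in an intron of Cdkl4, 2888 bp from its start, had 80.1 and 86.1 in WT against 31.2 and 45.1 in DKO cells. At both sites the DKO values lay below the WT values with no overlap. Sites of similar rank lay in Htra1, a secreted serine protease gene (59.9 and 64.6 against 29.0 and 34.7), in an intron of Runx2, which encodes a regulator of bone formation (62.5 and 66.9 against 12.9 and 18.5), and 67324 bp from Arntl, a component of the circadian clock (46.7 and 49.4 against 23.7 and 33.9). The promoter site of Nup62, a nuclear pore gene, had 50.7 and 61.9 against 17.9 and 25.0, and the site 205600 bp from Osr1, a developmental transcription factor gene, had 71.9 and 74.3 against 25.6 and 34.6. The site 60470 bp from Gm11084 had 56.6 and 67.1 against 19.3 and 28.1, and that in an intron of Mast4, nearest to the start of Cd180, 55.5 and 61.4 against 35.3 and 47.3. In an intron of Stil, 21187 bp from Tal1, the WT values of 44.0 and 48.8 overlapped the DKO values of 46.4 and 65.4. These are values relative to the local background, and in pileup, as described below, the same Tal1 site had 148 and 170 in WT against 99.0 and 138 in DKO cells, with no overlap.

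The strongest WT-only sites had fold enrichments above the median of the shared sites and no peak in either DKO library. The site 7156 bp from Ddx51, an RNA helicase gene, had 42.6 and 43.1. Near Sirt4, which encodes a mitochondrial sirtuin, the value was 29.0 and 32.7 at 7107 bp from the start. In the promoter of Nnt, the gene of a mitochondrial transhydrogenase, 270 bp from the start, it was 25.1 and 29.5. Farther sites lay 32156 bp from Gm7866 (23.7 and 31.8), 140732 bp from Zfp521 (32.4 and 27.6) and 71311 bp from Stard3nl (32.5 and 34.1). Others lay 121121 bp from Il12b (23.1 and 23.2) and 56627 bp from Hdac2 (18.6 and 18.7). The remaining sites lay 4245 bp from Terf2 (18 and 18.6) and in an intron of Snx10 (22.6 and 23.4). Of these 10 sites, those at Gm7866, Zfp521, Stard3nl, Il12b and Snx10 had no H3K27ac peak in any of the 4 libraries, and those at Sirt4, Nnt and Hdac2 had one in all 4. The Nnt promoter had H3K27ac fold enrichments of 20.4 and 17.8 in WT against 13.6 and 23.5 in DKO cells, and the Hdac2 site 9.25 and 11.6 against 9.28 and 9.47.

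**Figure D2:**
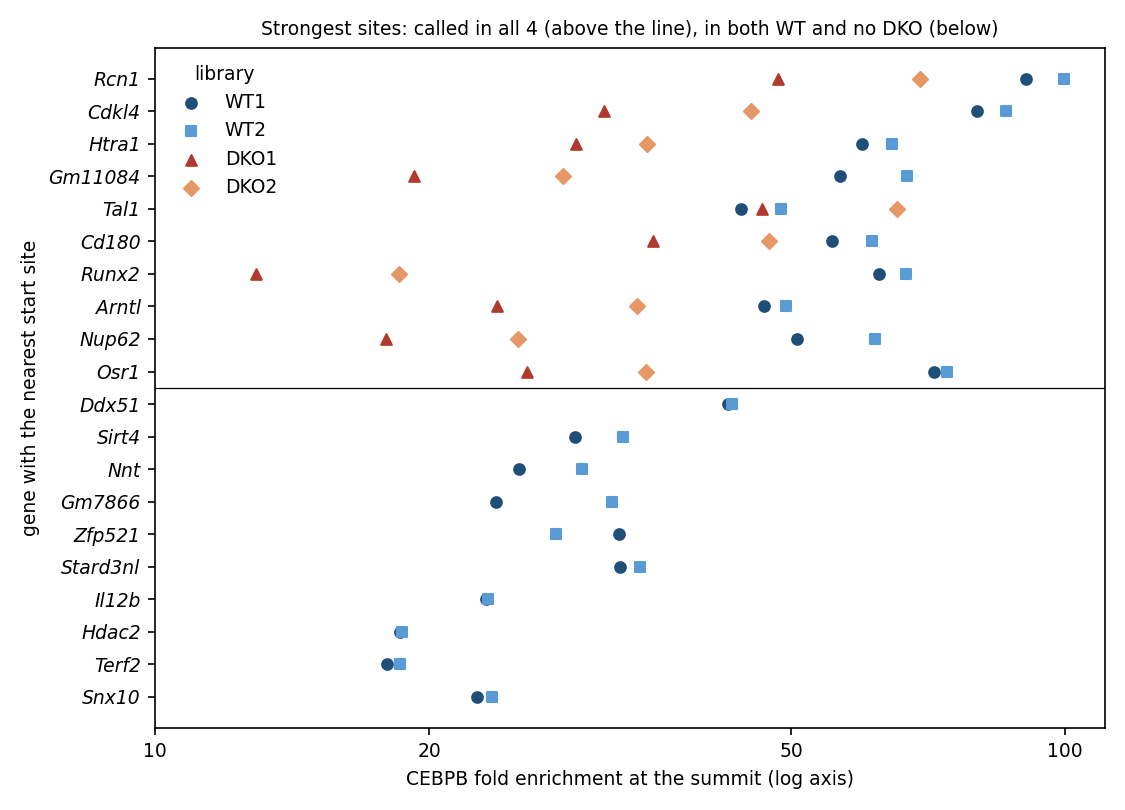
Fold enrichment (log axis) of the 10 strongest CEBPB sites called in all 4 libraries, above the line, and of the 10 strongest called in both WT and no DKO library, below it; each point is 1 library and each row the gene with the nearest start. At 9 of the 10 upper sites both DKO points lie left of both WT points, the site near Tal1 being the exception, and the lower sites have WT points only.

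Taken 100 at a time, the strongest sites of each class differed in sequence and in the other antibodies. Among the 100 strongest called in all 4 libraries, 79 held the core within 100 bp of the summit. At 26 the core nearest the summit was the palindrome TTGCGCAA. An AP-1 motif (TGACTCA or TGAGTCA, the element of FOS and JUN dimers) lay within 100 bp of the summit at 33. Among the 100 strongest WT-only sites these numbers were 68, 4 and 6. A peak of p300, the acetyltransferase that acetylates H3K27, was present in a WT library at 41 and 6 sites, and an H3K27ac peak at 72 and 41. The strongest WT-only sites were weaker than the strongest shared ones, with a mean −log10 q of at least 46.7 against 147, so that strength differs along with these features.

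To separate a feature from strength, retained shares were compared within the 10 strength classes. Sites with an AP-1 motif (2138 of 12086) were retained in 57.2% of cases and those without in 42.1%. The AP-1 sites had the higher share in 10 of 10 classes, by 0.541 to 25.6 percentage points; in the fifth class the shares were 50.2% and 24.6%. Sites with a p300 peak in a WT library (1847) were retained in 58.6% against 42.3% of cases, again with the higher share in 10 of 10 classes, by 0.719 to 25.8 points. In the seventh class p300 sites were retained in 77.5% and the others in 51.7%. For H3K27ac the overall shares were 51.8% and 39.9%, but the acetylated sites had the higher share in 5 of 10 classes, with a mean difference of 0.89 points. For Brd3, a bromodomain protein that binds acetylated histones, the shares were 52.2% and 43.1%, with 7 of 10 classes higher and a mean difference of 0.78 points. Sites with both an AP-1 motif and a p300 peak (540) were retained in 61.9% of cases and sites with neither (8641) in 39.8%. These are descriptions over sites, which are not replicates, and no test was made over them.

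**Figure D3:**
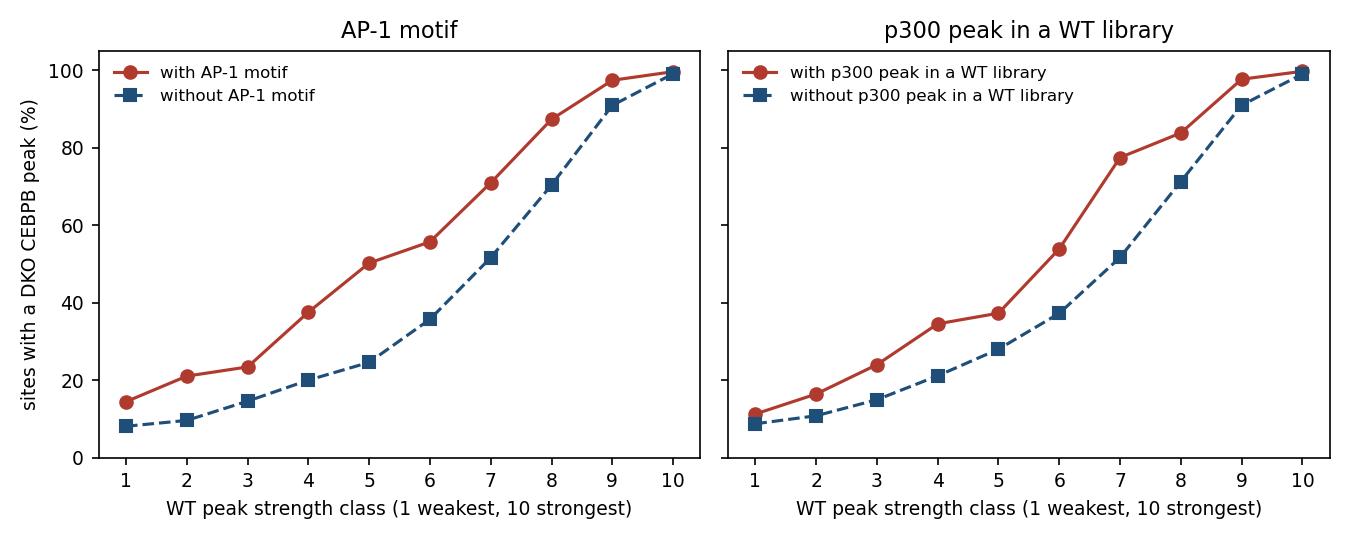
Share of CEBPB sites called in both WT libraries that had at least 1 DKO peak (%), against the class of WT peak strength (1 weakest, 10 strongest), for sites with (red) and without (blue) an AP-1 motif, left, or a p300 peak in a WT library, right. The red points lie above the blue points in 10 of 10 classes in both panels, and the curves meet in class 10, where 99.2% of sites were retained.

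The core itself was found within 100 bp of the summit at 58.4% of sites called in all 4 libraries, 53.3% of those with 1 DKO peak, 48.8% of WT-only sites and 26.8% of DKO-only sites, against 8.93% at positions 5000 bp away. The DKO-only share is over 82 sites, of which 24 lay on chromosome Y and 11 on chromosome X. Within strength classes, sites with a core had the higher retained share in 3 of 10. The shares differed with the variable bases of the core. Sites whose nearest core was the palindrome TTGCGCAA were retained in 68.7% of 498 cases. The most frequent core, TTGCACAA, gave 51.9% of 1480, TTGCTCAA 46.0% of 785 and TTGCAAAA 39.5% of 531, while sites without a core gave 40.3% of 5732. The median −log10 p in WT cells was 34.4 at TTGCGCAA and 28.6 at TTGCACAA. In the 4 weakest classes the palindrome was retained in 28.8% and TTGCACAA in 17.1% of cases, in classes 5 to 7 in 54.4% and 38.7%, and in the 3 strongest in 95.9% and 87.9%. Among the weakest sites TTGCTCAA, the core of the Ddx51 and Nnt sequences above, was retained in 9.49% of cases and sites with no core in 14.6%, whereas in classes 5 to 7 the shares were 42.2% and 41.2% and in the 3 strongest classes 83.9% and 87.8%.

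Other proteins and marks remained at lost CEBPB sites about as often as at shared ones. Of the 1761 WT-only sites with an H3K27ac peak in both WT libraries, 93.2% had an H3K27ac peak in a DKO library, against 93.4% of the 1652 such sites called in all 4. For p300 the shares were 69.0% of 452 and 71.9% of 530, and for Brd3 35.0% of 615 and 34.5% of 557. The peak numbers of p300 and Brd3 were themselves lower in DKO cells (log2 changes of -1.0 and -1.66, adjusted p = 0.0211 and 0.00482 from limma). A peak of the trimethyl mark H3K27me3 was found at no more than 1 site in any class and library, and the length of those peak lists was not set beside this.

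At the 4193 sites called in all 4 libraries CEBPB enrichment was lower in DKO cells. The median fold enrichment was 14.6 and 15.2 in WT against 8.76 and 9.15 in DKO cells, and the median pileup over the genome background was 38.4 and 40.1 against 24.9 and 26.3. Of the 4184 sites on chromosomes 1 to 19 and X, 3976 had the lower mean pileup in DKO cells. Both DKO pileups lay below both WT pileups at 3630 sites and above both at 78, among them a site in Smad3 described below. Single sites were therefore compared relative to the typical shared site, after subtraction of each library's median.

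Relative to that median, fold enrichment was lower in DKO cells at 960 sites (22.9%) and higher at 1169 (27.9%) with an adjusted p under 0.05 from limma. Without subtraction of the median 2838 sites (67.7%) were lower and 179 (4.27%) higher. The relative change went with the local background, which is the denominator of fold enrichment. Over 4184 sites the relative change of fold enrichment and the change of local background had a Pearson r of -0.83 and a Spearman rho of -0.80, and both quantities contain that background. The background agreed within 1.2-fold at 83.9% of sites between WT1 and WT2 and at 88.7% between DKO1 and DKO2. Between WT1 and DKO1 it agreed at 29.8%. The series holds no replicate of the MEF input library in either genotype. Where the lists of a genotype shared that input, the p of fold enrichment does not measure the spread of the background between inputs. The pileup, which does not contain the local background, was used as a further measure, chosen after the values were seen. By pileup 511 sites (12.2%) were relatively lower and 669 (16.0%) higher. The calls by both measures shared 269 lower and 405 higher sites, and 73 sites were called in opposite directions.

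**Figure D4:**
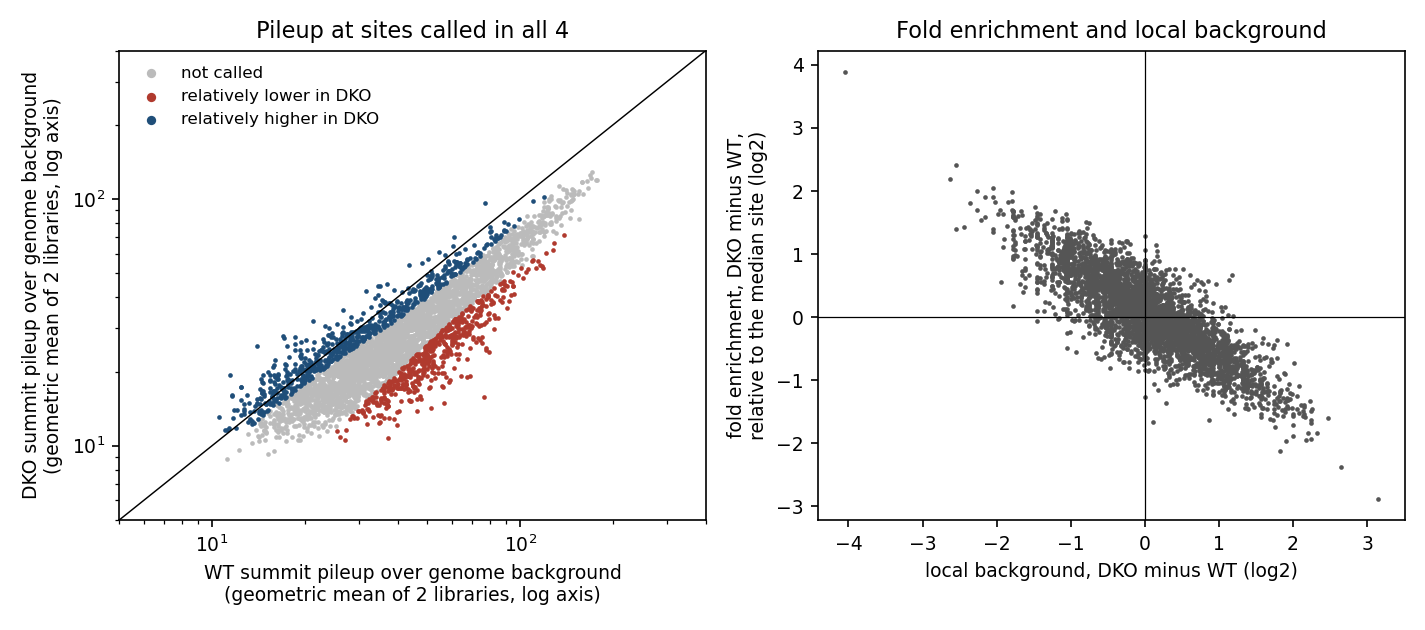
Left, CEBPB summit pileup over the genome background in DKO against WT cells (log axes, geometric mean of 2 libraries) at the sites called in all 4 libraries, coloured by the limma call on pileup relative to the median site; the line marks equal values. Right, the relative log2 change of fold enrichment against the log2 change of local background at the same sites, with a Pearson r of -0.83.

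The 5 largest decreases of fold enrichment were near Slc1a3, Gpc6, Gm5454, Col6a2 and Mnt, and the 5 largest increases near Cnr1, Mecom, Chrna10, Eltd1 and Cacnb2. The site 95756 bp from Slc1a3, a glutamate transporter gene, fell from 29.8 and 37.3 in WT to 2.53 and 2.93 in DKO cells, a relative log2 change of -2.88 (limma, adjusted p = 1.93e-09). Its local background rose from 1.37 and 1.46 to 13.2 and 11.9 times the genome background, and its pileup changed from 60.1 and 79.8 to 34.8 and 36.4, a relative log2 change of -0.34 (limma, adjusted p = 0.0182). The decrease in fold enrichment at Slc1a3 was thus mostly in the denominator. At the Cnr1 site the fold enrichment was 2.38 and 3.17 in WT against 23.2 and 25.7 in DKO cells, while the pileup was 41.1 and 52.7 against 42.7 and 46.6, with overlapping values and a change relative to the median site of 0.55 (adjusted p = 1.41e-04 from limma). The Mnt promoter had a relative change of -1.95 in fold enrichment and of -0.16 in pileup (adjusted p = 0.320 from limma), and Chrna10 of 2.19 and 0.15 (adjusted p = 0.558 from limma). Of these 10 sites Gm5454 kept the largest change in pileup, at -0.83 (71.2 and 72.3 in WT, 24.9 and 27.8 in DKO cells).

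By pileup the largest relative decrease was at a site near Gm17509, within an intron of Emb, which encodes a cell adhesion protein. The pileup there was 73.6 and 79.3 in WT against 18 and 13.7 in DKO cells, with a local background between 1.53 and 1.68 in all 4 libraries and a change relative to the median site of -1.67 in log2 (SE 0.14, adjusted p = 1.28e-18 from limma). The DKO values were far below the WT values. Next came introns of Phex (-1.30) and Rbms3 (-1.23) and sites near Samsn1 (-1.24) and 4930522H14Rik (-1.21). The largest relative increase was in an intron of Mpdz, where the pileup was 13.1 and 14.9 in WT against 27.6 and 23.5 in DKO cells (relative log2 change 1.48). After it came the promoters of Camta1 (1.38) and Ssbp4 (1.29), a site 1653381 bp from G6pd2 (1.33) and a site 27054 bp from Nanos3 (1.2). At the Mpdz site both DKO values exceeded both WT values without centring, while the local background was 1.15 in both WT libraries against 2.64 and 2.55 in DKO cells, and the fold enrichments overlapped (7.53 and 8.45 against 8.08 and 7.17). At Camta1 and Ssbp4 the local background was also higher in DKO cells, and the log2 change of fold enrichment without centring was -0.15 and -0.20. Weak sites had to pass the caller's threshold in both DKO libraries to be in this set, and in the weakest of 4 equal strength groups the median relative change was 0.29.

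Shared sites with an AP-1 motif were more often among the relatively higher ones. Of 953 such sites, 3.57% were lower and 23.8% higher in pileup, and of the 3231 sites without the motif 14.8% were lower and 13.6% higher. The local background differed little with the motif (medians of 1.71 to 2.03 with and 1.85 to 2.03 without). In each of these 4 groups the median relative change was the higher one with the motif: 0.38 against 0.25 in the weakest, 0.17 against 0.02, 0.08 against -0.06, and 0.08 against -0.06 in the strongest. Of the 914 shared sites with a p300 peak in a WT library, 5.80% were lower and 17.9% higher, and of the 3270 without one 14.0% and 15.3%. Of the 324 promoter sites, 4.32% were lower and 18.8% higher in pileup, and of the other sites 12.9% and 15.6%. By fold enrichment the promoter sites went the other way, with 103 lower and 65 higher and a median relative change of -0.11, against 0.13 by pileup. Their median local background was 2.28 in both WT libraries and 3.33 and 3.40 in the DKO libraries.

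Genes were then described by the CEBPB sites within 100 kb for which they had the nearest start. Of 22238 protein-coding genes, 6458 (29.0%) had a site of any class, 3569 (16.0%) a WT-only site and 2391 (10.8%) a site called in all 4. Of the sites near genes that both WT libraries called, 56.2% were WT-only. The counts below are read beside these shares.

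Of 11 C/EBP genes and bZIP partners, 5 had a site called in all 4 libraries and 5 a WT-only site, and 47.4% of their 19 sites called in both WT libraries were WT-only. Cebpb had 6 such sites. In its 3′ UTR (chr2:167515536-167515764) the fold enrichment was 14.9 and 17.6 in WT against 6.40 and 5.26 in DKO cells. The distal sites of Cebpb, at 71216 and 88717 bp from the start, were also called in all 4, with pileups of 55.8 and 56.0 against 39.1 and 41.5, and of 53 and 61.1 against 47.7 and 41.5. DKO pileups were below WT pileups at all 3, and relative to the typical site none passed the test by pileup (adjusted p from limma 0.179, 0.363 and 0.0781). Of the 10 shared sites of the list, 5 were relatively lower and 1 higher by fold enrichment, against 717 and 766 of 2995 for all genes, and 0 passed by pileup, against 333 and 454. The other 3 Cebpb sites, with fold enrichments of 5.24 to 14.6 in the WT libraries, were WT-only. The promoters of Cebpg, a family member without an activation domain, of Ddit3, which encodes the stress factor CHOP, and of Atf3 kept a peak in all 4 libraries, while that of Cebpa, the regulator of terminal adipocyte differentiation, was WT-only with 6.95 and 8.15. At Nfil3, a bZIP repressor gene, 4 of 4 sites called in both WT libraries were retained; the strongest, in an intron, had a pileup of 144 and 148 in WT against 81.3 and 101 in DKO cells.

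Of the 14 AP-1 genes, 2 had a site in all 4 libraries and 4 a WT-only site. Introns of Fosl2 (28.1 and 29.1 against 14.5 and 13.2) and of Atf7 (27.8 and 29.8 against 13.3 and 16.7) were bound in all 4 libraries. The promoters of Fosb and Jdp2 and sites near Junb and Bach1 were WT-only, with WT fold enrichments of 5.08 to 14.0.

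The 30 inflammatory and acute-phase genes had 75 sites, and 23 of the genes (76.7%) had at least 1, against 29.0% of all genes. Of their 58 sites called in both WT libraries 62.1% were WT-only, with 20 genes having a WT-only site and 13 a site called in all 4. Ptgs2, the inducible cyclooxygenase, kept its promoter site (chr1:151946899-151947247), with a pileup of 94.5 and 112 in WT against 71.7 and 90.5 in DKO cells, and 2 distal sites. At the chemokine gene Ccl2 a site 28621 bp away had 142 and 152 against 89.0 and 111. All DKO values at these sites were below the WT values, but by about as much as at the typical shared site (relative changes of 0.26 and 0.05, adjusted p = 0.118 and 0.841 from limma). Near Cxcl5, a neutrophil chemokine gene, fold enrichment was higher in DKO cells (25.9 and 28.3 against 30.8 and 37.3), whereas the pileup was lower (86.6 and 98.4 against 64.0 and 76.4). The promoter of Il6 (chr5:30339408-30339582; 8.20 and 8.04), and those of the acute-phase genes C3 (8.27 and 9.99) and Hp (8.93 and 11), were WT-only. An exon site in Il6, 1672 bp from the start, was called in all 4 (9.33 and 9.56 against 5.56 and 7.06). At Nfkbiz, which encodes an inhibitor-like regulator of NF-kappaB, 5 of 5 sites called in both WT libraries were WT-only. By pileup 3 of the 16 shared sites of this list were relatively lower and 0 higher, against 333 and 454 of 2995 for all genes. The sites lower by pileup were near Cxcl1 (-0.54; 49.8 and 46.2 in WT, 20.9 and 22.3 in DKO cells), Socs3 (-0.40) and Il1rn (-0.36). By fold enrichment 3 sites were lower, near Socs3, Csf1 and Lif, and 2 higher, near Cxcl5 and Il6st, against 717 and 766 for all genes.

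Of the 16 integrated stress response genes, 12 (75.0%) had a site, against 29.0% of all genes. Of their 15 sites called in both WT libraries, 26.7% were WT-only, beside 56.2% for all genes. Only retained sites were found at 7 of these genes, both kinds at 3, and only lost sites at 0. The promoters of Chac1, which degrades glutathione (pileup of 66.1 and 69.5 in WT, 48.7 and 54.5 in DKO cells), of the pseudokinase gene Trib3 (53.8 and 50.4 against 28.8 and 44.7) and of the cystine transporter gene Slc7a11 (45.9 and 41 against 28.5 and 27) had a peak in all 4 libraries. At each of these promoters the DKO pileups lay below the WT pileups. The Asns promoter was WT-only, with 5.15 and 7.12, while a site 40012 bp from Asns had a fold enrichment of 4.75 and 5.27 in WT against 9.11 and 8.49 in DKO cells and a pileup of 21.8 and 25.2 against 20.1 and 20.8. By pileup 0 of the 8 shared sites of this list passed the test, and by fold enrichment 1 was relatively lower and 2 higher, the distal Asns site among the latter (1.55, adjusted p = 3.88e-06 from limma). For all genes 333 and 454 of 2995 sites were lower and higher by pileup and 717 and 766 by fold enrichment. The retained share of the list is over 15 sites, and was not tested. These sites were also stronger in WT cells, with a median −log10 p of 36.4 against 23.5 for all genes, and the part of strength in the share was not tested.

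Of the 21 adipocyte differentiation genes, 15 (71.4%) had a site, against 29.0% of all genes. Of their 29 sites called in both WT libraries, 44.8% were WT-only. Pparg, the main regulator of fat cell differentiation, had 4 sites called in all 4 libraries. Their pileups ranged from 21.8 to 42.4 in the WT libraries and from 12.9 to 26.1 in the DKO libraries, and none differed from the typical shared site by pileup. The promoter of Plin2, a lipid droplet protein gene, was WT-only (7.55 and 8.10), and a site 20369 bp away had 30.1 and 39.1 in WT against 16.3 and 17.7 in DKO cells. At Cd36, a fatty acid transporter gene, 2 intronic sites were called in all 4 libraries and 2 sites were WT-only.

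The 27 fibroblast and extracellular matrix genes had 77 sites, and 53.8% of the 52 called in both WT libraries were WT-only. By pileup and by fold enrichment alike, 2 of their 18 shared sites were relatively lower and 4 higher, against 333 and 454 of 2995 for all genes by pileup and 717 and 766 by fold enrichment. Of the 2 shared sites near Ctgf, which encodes a matricellular protein, 1 had a pileup of 60.9 and 61.1 in WT against 62.6 and 78.8 in DKO cells. Its relative log2 change was 0.82 (SE 0.12, adjusted p = 1.67e-08 from limma). In an intron of Dcn, the decorin gene, the pileup was 50.6 and 47.1 in WT against 19.4 and 20.4 in DKO cells, a relative change of -0.68 (SE 0.14, adjusted p = 1.45e-04 from limma). The DKO values at this Dcn site were all below the WT values, and those at this Ctgf site were all above them. Introns of the collagen genes Col3a1 (0.55), Col5a2 (0.51) and Col6a3 (0.41) were relatively higher, and Col6a2 was lower (-0.47). The promoter of Fap, a fibroblast protease gene, was WT-only (6.40 and 6.86).

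Of the 20 annotated mesenchymal transcription factor genes, 18 had a site, against 29.0% of all genes. Of their 56 sites called in both WT libraries, 62.5% were WT-only. At Runx2 the strongest intronic site had a pileup of 168 and 187 in WT against 101 and 141 in DKO cells, a relative change of 0.05 that did not pass the test (adjusted p = 0.869 from limma), whereas its fold enrichment had a relative change of -1.33. An intron of Runx1 held a WT-only site with fold enrichments of 23.6 and 19.2, and Sox9 had 3 WT-only sites and 0 shared ones. In an intron of Smad3, which encodes a signal transducer of TGF-beta, the pileup was 30.9 and 38.7 in WT against 43.6 and 45.5 in DKO cells, a relative change of 0.98 (SE 0.12, adjusted p = 8.21e-10 from limma), with both DKO values above both WT values. By pileup 1 of the 17 shared sites of this list was relatively lower and 4 higher. By fold enrichment 4 were lower and 3 higher. For all genes the numbers were 333 and 454 of 2995 by pileup and 717 and 766 by fold enrichment.

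Of the 16 cell cycle and p53 genes, 12 (75.0%) had a site, against 29.0% of all genes. Of their 27 sites called in both WT libraries, 44.4% were WT-only. The site 11949 bp from Cdkn1a, the p21 gene, had a pileup of 125 and 143 in WT against 79.8 and 87.4 in DKO cells, and that 1783 bp from Myc 98.1 and 98.4 against 53.5 and 65.8. At both the DKO values were lower than the WT values, and relative to the typical shared site neither passed the test by pileup (-0.07 and -0.11). Gadd45a and Gadd45b, which encode related growth arrest proteins, had both classes of sites in different numbers. Gadd45a had 4 sites called in all 4 libraries and 2 WT-only sites. Gadd45b had 4 WT-only sites, its promoter included (10.6 and 8.53), and 1 shared site at 9868 bp, where the pileup was 23.3 and 30.3 in WT against 32.4 and 28.6 in DKO cells. By fold enrichment 6 of the 13 shared sites of this list were relatively lower and 3 higher, and by pileup 0 were lower and 3 higher. For all genes the numbers were 717 and 766 of 2995 by fold enrichment and 333 and 454 by pileup.

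**Figure D5:**
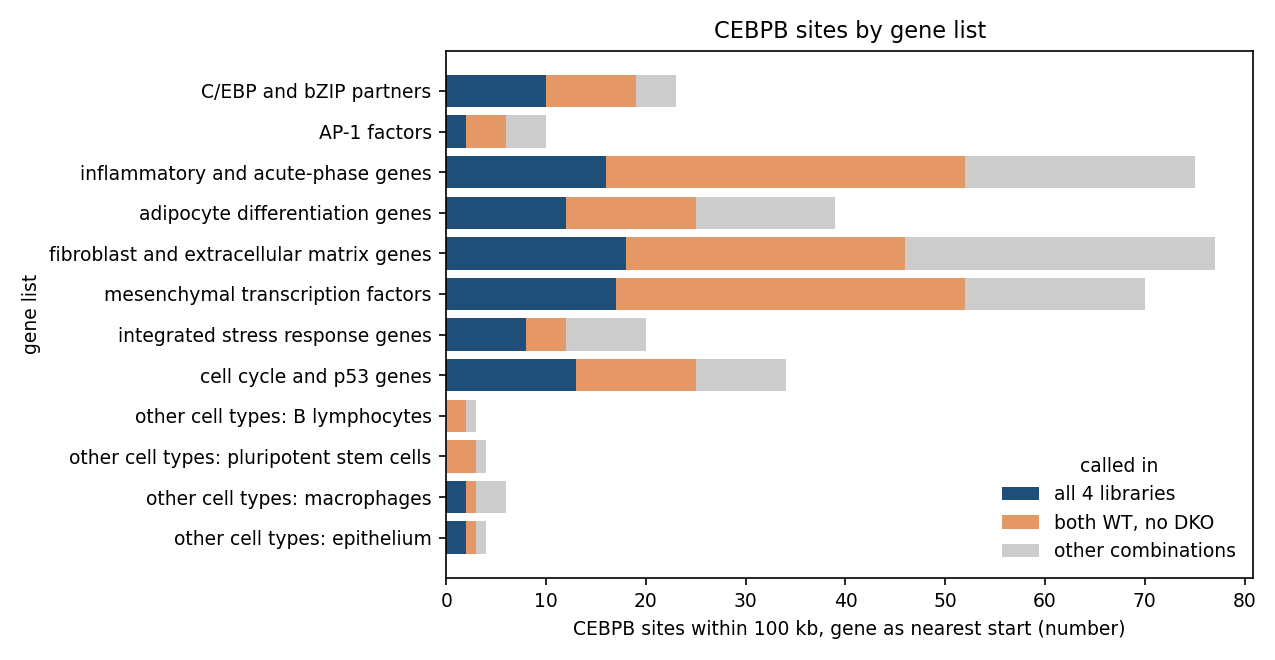
Stacked bars give the number of merged CEBPB sites within 100 kb of the genes of each list, by the libraries that called them: all 4 (blue), both WT and no DKO (orange), other combinations (grey). The integrated stress response genes have 8 sites called in all 4 and 4 WT-only sites, the inflammatory and acute-phase genes 16 and 36.

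Some genes had many sites of a class. The 5 genes with most WT-only sites were Itpr1, the gene of an intracellular calcium channel, and Ch25h, which encodes cholesterol 25-hydroxylase, with 8 each, and Arid5b, Haao and Stk17b with 7 each. In this order they had 10, 11, 16, 9 and 8 sites of any class. For all genes 40.4% of the sites within 100 kb were WT-only and 24.5% were called in all 4. The genes were picked by these counts. Haao and Stk17b had 0 sites called in all 4 libraries. The strongest WT-only site at Stk17b had a fold enrichment of 18.1 in each WT library. With 5 sites called in all 4 libraries each, Alcam, App, Dlc1, Mbnl1 and Tcf4 led the shared class, with 9, 7, 11, 11 and 7 sites of any class. App, the amyloid precursor gene, had 0 WT-only sites.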

How the data were processed

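The CEBPB peak lists from 2 WT and 2 DKO MEF samples were used, with MEF H3K27ac, p300, Brd3 and H3K27me3 lists for overlap and all 64 lists of the 16 antibodies for the limma fits of peak number. Per the labels and methods, the authors trimmed reads with cutadapt 1.16, mapped them to mm9 with BWA, marked duplicates, removed blacklisted regions and called peaks per library against input with MACS2 2.1.1.20160309; bcl2fastq 1.8.4 is in the submitters' processing notes. Fold enrichment is the authors' ratio of summit pileup to local background, each with a pseudocount. The −log10 p and −log10 q in the deposited lists come from the caller's test, and the deposited score, derived from the q value, was not used. The deposited lists hold no read counts, and the lowest −log10 q was 2.01. Which input library served which list is not given in the sources used here.

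Sites were peaks merged at 1 bp overlap, and the strongest peak stood for a library. Pileup and local background were solved from fold enrichment and −log10 p and divided by the genome background of the library. All low pileups (100%) were whole multiples of the value of 1 read within 0.1 read. Peak numbers, promoter to distal ratios (promoters within 1000 bp of GENCODE vM1 protein-coding starts, antibodies with at least 20 promoter peaks) and log2 fold enrichment or pileup at shared sites (library medians subtracted) were tested with limma 3.58.1 in R 4.3.3, adjusted by the Benjamini-Hochberg method at 0.05. Overlap with another antibody needed 1 bp. Motif matches on either strand counted up to 100 bp from a summit. Genes were assigned by nearest start, within 100 kb for lists. The members and lists were chosen with earlier results of these data known. Named are the 10, 10 and 5 strongest sites (mean −log10 q) called in all 4, WT-only and DKO-only (1 DKO-only site is not reported here), the 5 largest decreases and increases of fold enrichment past the threshold, list members, and the 5 genes with most sites of a class; the sites chosen by pileup and the list examples were picked after their values were seen. Cebpd, Foxf1 and Spi1 were not matched in the annotation. The site classes, the solution of pileup and background, and limma on peak number and shared fold enrichment were tested on simulated data. The other steps were not.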

Additional observations from a re-analysis of the deposited data

How the results depend on the processing

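Of 91 recalculated summary values, 77 kept their direction and side of the threshold or stayed close to the value given, 13 moved and 1 reversed. Peak number (-1.44 to -1.56) and the promoter to distal ratio kept theirs under every setting. Sites in all 4 libraries numbered 4193, and 3153 (equal list length) to 4967 (without DKO1) over the alternatives. With the strongest 4886 peaks of each library, WT-only sites numbered 722 in place of 6675, and the difference in the share of peaks with the core, DKO minus WT, went from 5.41 to -2.55 percentage points, so that class sizes and this share depend on list length. For fold enrichment at shared sites, 2129 were called, against 1180 by pileup. Lower sites numbered 960, against 2838 without the median subtracted, 606 with −log10 p and 511 by pileup. Higher sites numbered 1169, against 179 without the median subtracted and 669 by pileup. With a replicate left out, 748 to 831 were lower and 776 to 1044 higher. The difference in p300 share, retained minus lost, was 8.54 points, and 5.02 with a peak required in both WT p300 libraries. For AP-1 it was 8.93 points, 12.7 within strength classes, and 8.28 to 8.91 with a replicate left out. Of 107 values for the named sites, 104 kept their call. By pileup the Mnt, Chrna10 and Cacnb2 sites did not pass. Pileup, depth matching, strength classes and the AP-1 comparison were added once values had been seen.

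The deviations of same-numbered libraries had a Pearson r of 0.001 over 4193 sites after subtraction of the library medians. This cannot show whether same-numbered libraries were prepared together, since effects on a whole library were removed. With the replicate block the log2 change of peak number was -1.50 (SE 0.04, adjusted p = 0.00723 from limma), the promoter to distal ratio -0.04, and 2082 shared sites were called, 937 lower and 1145 higher. The lists do not give the DKO signal at sites without a DKO peak, which limits every statement on lost sites to the caller's threshold.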

Other observations

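The 82 DKO-only sites were unevenly placed. Chromosome Y held 24 of them and chromosome X 11, against 54 and 381 of all 17002 sites, and 8 of the 11 on chromosome X lay close together. The strongest DKO-only site, in an intron of Ppap2a, had fold enrichments of 19.6 and 18.6, that in an intron of Taf3 9.73 and 11.2, that near Hint1 10.3 and 10.8, and that in an intron of 3830403N18Rik 11.8 and 15.3.

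Of all protein-coding genes, 29.0% had a CEBPB site within 100 kb, and markers of cell types other than fibroblasts were read beside this share. Of 10 B lymphocyte genes 2 had a site and of 10 pluripotency genes 3, with 0 called in all 4 libraries. Of 8 annotated macrophage genes 4 had a site and of 10 epithelial genes 3, with 2 genes each having a site called in all 4. The macrophage gene Mpeg1 had a shared site 15550 bp from its start, with a pileup of 76.4 and 72.8 in WT against 27.6 and 34.9 in DKO cells (relative log2 change -0.65, adjusted p = 7.56e-06 from limma). At the shared site of Itgam the relative pileup change was 0.26 (adjusted p = 0.266 from limma). By fold enrichment 0 of these 2 macrophage sites were relatively lower or higher. Of the shared epithelial sites that of Cldn3 was relatively higher by pileup (0.56, adjusted p = 1.63e-04 from limma) and lower by fold enrichment (-0.43, adjusted p = 0.0326 from limma). That of Epcam had a relative pileup change of 0.20 (adjusted p = 0.324 from limma). By fold enrichment 2 of these 2 epithelial sites were relatively lower, that of Epcam included.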
